A study of Homo sapiens with 15 samples.

Results

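Methylation was followed through the middle of the 28S ribosomal RNA gene, the gene of the large ribosomal subunit's main RNA, in a human lymphoblastoid cell line. Lymphoblastoid lines are B lymphocyte cultures immortalised with Epstein-Barr virus. The stretch was bounded by fixed positions on the human ribosomal DNA repeat reference. No measured level entered the rule for the stretch, though earlier results of these data were known when its members were chosen. The members of the stretch were the cytosines with at least 10 reads in at least 2 libraries of every group. The rule gave 226 cytosines of 2476 in the whole repeat. Of these, 106 were CpG sites, of 1022 by the same rule in the series, and 55 CHG and 65 CHH cytosines served as the local control of bisulfite conversion (H stands for any base but G). The CpG members lay between 9972 and 10879, and no CpG site to the right of these met the rule. Placement in the 28S gene rests on the published layout of the reference, which was not checked here, and its sequence was not used here.

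The 4 groups compared were all from this line. The controls (n = 6) were untreated cells sampled before exposure began, and the other groups were cells given 5 µM hexavalent chromium, Cr(VI), for 24 hours and sampled at day 3, day 7 or day 14 (n = 3 libraries each). All were grown in RPMI medium, no other genotype was measured, and ribosomal DNA methylation gives no marker by which to check the cell type. Control titles repeat the numbers 1 to 3, once for each of 2 sets, and libraries of the second set are numbered 4 to 6 here. No label ties a library to a separate culture, and the labels' protocol speaks of 2 biological replicates, so p-values here reflect library-to-library spread that may be technical only.

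Human cells carry many tandem copies of the ribosomal DNA unit, from which RNA polymerase I makes the precursor of the 18S, 5.8S and 28S RNAs. Some copies are active and others silent, and silent copies are known for high CpG methylation, so that a population of cells shows intermediate levels. In bisulfite sequencing an unmethylated cytosine is converted and read as T, whereas a methylated one still reads as C. Outside CpG, cytosines of these cells are largely unmethylated, and a C read there is used as a measure of failed conversion.

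Of the 106 CpG members, 97 had at least 10 reads in all 15 libraries and were tested, among 851 such sites in the series. Libraries held 28716783 to 95852393 C or T calls in all, and the median coverage of a library at the 97 sites lay between 604 and 8666 reads, with 10 reads at the thinnest point. Coverage fell into steps along the stretch, with neighbouring sites sharing reads of the same PCR products. The members were therefore described in segments, split where the control median coverage changed at least 3-fold or where more than 75 bp separated neighbours. These segments were drawn after the data were seen and are descriptions without a test of their own.

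**Figure D1:**
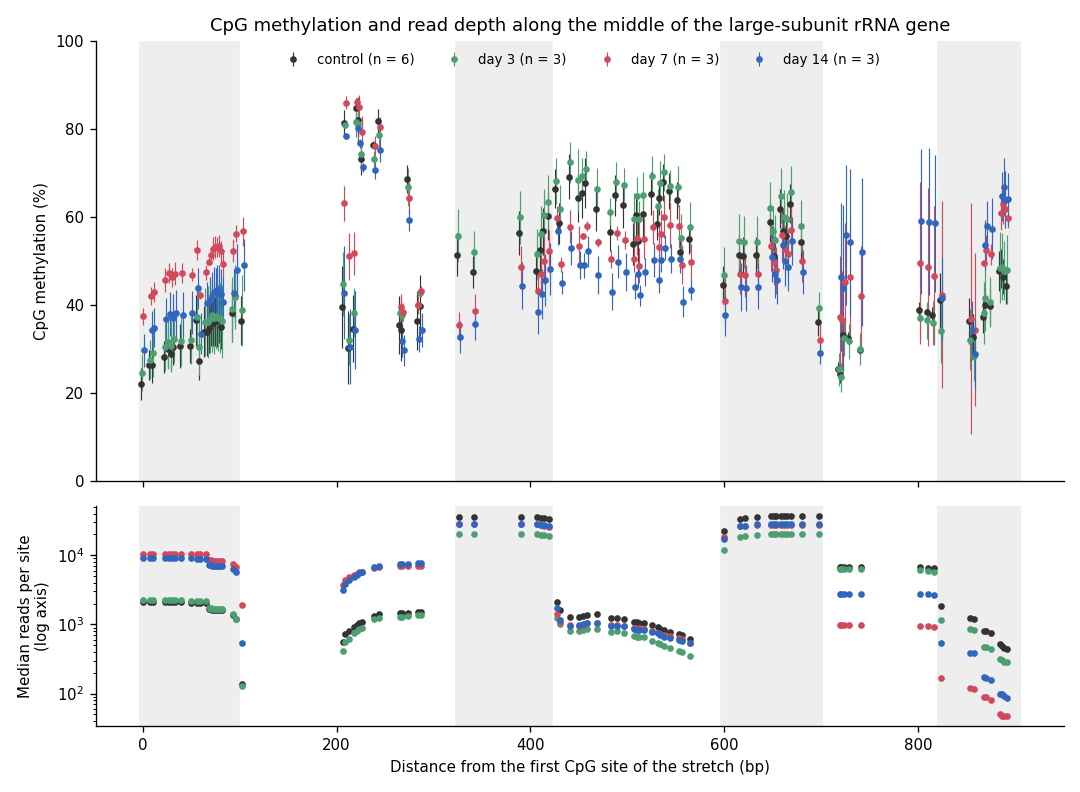
CpG methylation in percent (top, mean ± SD over libraries) and the median number of reads per site on a log axis (bottom), against distance in bp from the first CpG site, for the 97 tested CpG sites in 4 groups. Shaded and unshaded runs are the depth segments; controls ranged from 21.9% to 84.6% methylation between sites, and coverage at days 7 and 14 was above control on the left and below control on the right.

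In the controls the 97 sites averaged 47.8% ± 3.13 (SD, n = 6 libraries). Site means ran from 21.9% at 9972, the first member, to 84.6% at 10193, with a median of 47.4%. The SD between control libraries had a median of 4.51 points and reached 9.38 points. At 9972 the lowest, median and highest control libraries had 15.7%, 23.4% and 24.7% methylation. At 10193 the same 3 values were 81.4%, 84.1% and 88.1%, so the extremes of the stretch were far apart in every control library.

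Averaged over the stretch, methylation moved little. Day 3 averaged 49.7% ± 3.27, day 7 51.7% ± 1.94 and day 14 47.0% ± 1.89 (SD, n = 3 each). None of the 3 differed from control in a two-sided exact permutation test over libraries (p = 0.429, 0.119 and 0.833, and 0.571, 0.238 and 0.833 after Benjamini-Hochberg adjustment over 4 comparisons). The smallest p this design allows is 0.0238 for 6 against 3 libraries and 0.1 for 3 against 3. The difference of day 14 from day 7 was -4.65 points (exact permutation p = 0.1, adjusted 0.238). When reads were summed over sites, which gives most weight to the 20 deeply read sites near the middle, the day 14 mean dropped by 6.32 points against control (exact permutation p = 0.0476, unadjusted). These averages were not corrected for incomplete conversion. The unconverted share at CHG and CHH cytosines of the stretch differed from control by 0.0643 points at day 3, 6.41 at day 7 and 1.67 at day 14. The flat average held rises and falls that lay in separate segments.

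**Figure D2:**
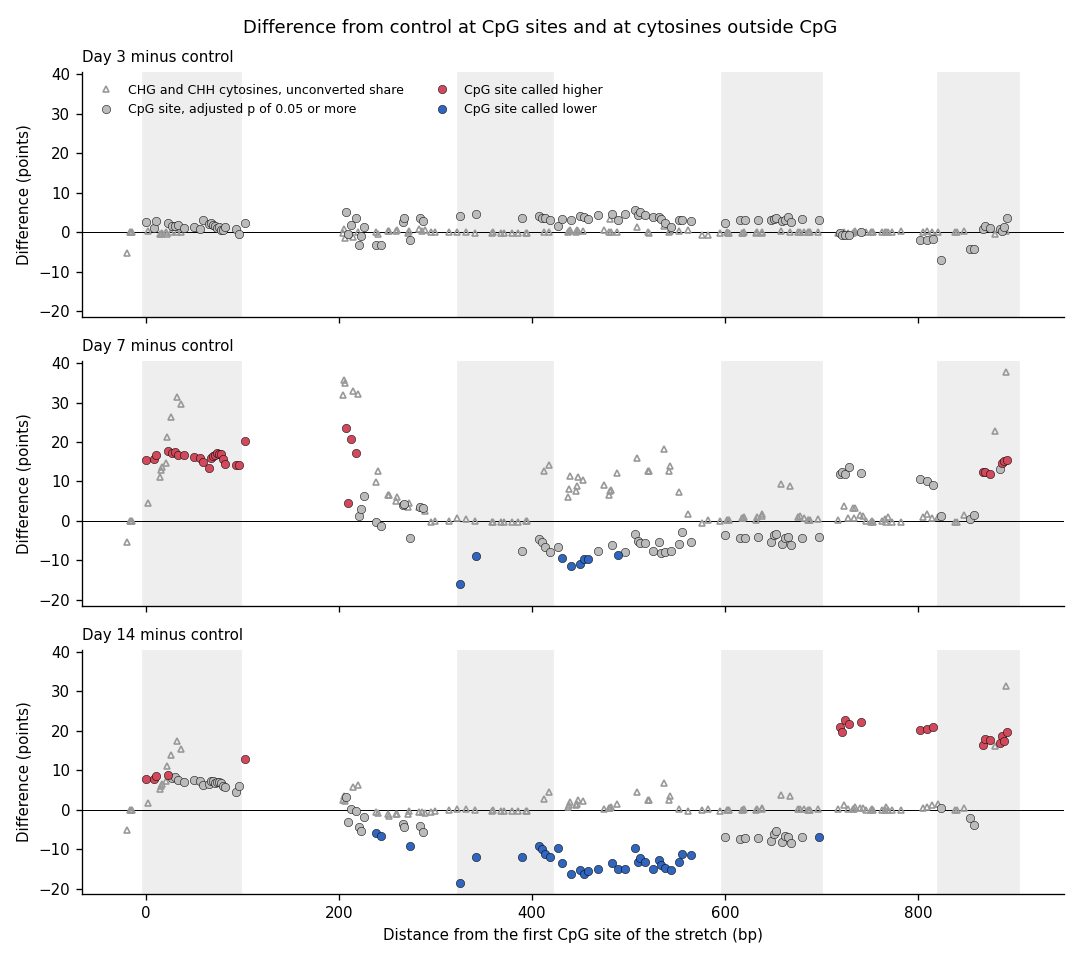
Difference from the control mean in percentage points at days 3, 7 and 14, against distance in bp from the first CpG site, for CpG sites (circles, red where called higher and blue where called lower by edgeR) and for CHG and CHH cytosines (open triangles, unconverted share). At day 7 rises stand at both ends and falls in the middle, and over the first segment the triangles run from below the circles to above them.

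At day 3 no member was called in either direction by edgeR's quasi-likelihood test at an adjusted p below 0.05 (0.0% of all 851 sites higher and 0.0% lower). No member had an unadjusted p under 0.05, and limma and a quasi-binomial model also made 0 calls. The median difference of the 97 sites was 2.45 points, against 2.31 points over all 851 sites, and 80 of the 97 lay above 0. The 3 members with the lowest p were 10479, 10193 and 10484 (edgeR adjusted p = 0.945 for each). Site 10479 had 52.5%, 62.8% and 62.8% in the day 3 libraries, against 49.3%, 51.7% and 61.1% for the lowest, median and highest control. Site 10484 averaged 59.5% ± 3.99 against 54.4% ± 4.99, and 10193 averaged 81.5% ± 3.55 against 84.6% ± 2.42. In all 3 the day 3 range overlapped that of the controls.

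At day 7, 33 of 97 members were called higher (34.0%) and 8 lower (8.25%) by edgeR, where 22.3% of all 851 sites were called higher and 41.8% lower. The median difference was 1.58 points in the stretch and -5.30 points over all sites. At day 14, 20 members were called higher and 33 lower, against 24.9% higher and 46.1% lower of all 851 sites. The median difference was then -4.51 points in the stretch and -5.52 points over all sites. The share of members called lower at day 7 was under that of all sites and the share called higher was above it, and these differences in share were not tested.

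Combining the days, 42 sites rose on at least 1 day, 33 fell on at least 1 day, and no site was called in both directions. Of the 42, 11 were called higher at both day 7 and day 14, 22 at day 7 only and 9 at day 14 only. Of the 33, 8 were called lower on both days and 25 at day 14 only. Another 6 sites were steady, with no call and every day's mean within 5 points of control, and 16 had no call but a shift of more than 5 points on some day. Called on 1 day only does not show that the days differed: between day 14 and day 7 only 4 members were called by edgeR, all lower at day 14 (13.9% of all 851 sites were higher and 4.7% lower). A quasi-binomial model called more members between these days, in both directions.

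These counts depended on single libraries. At day 7 the number called lower dropped from 8 to 2 without day 7 replicate 2, without day 7 replicate 3, and without control replicate 1, 4 or 6. At day 14 the number called higher dropped from 20 to 9 without day 14 replicate 2, and the number called lower from 33 to 21 without day 14 replicate 1. The 4 calls between days 14 and 7 went to 0 without day 7 replicate 2, day 14 replicate 2 or day 14 replicate 3, and to 1 without day 7 replicate 1. With the first control set only, 24 members were called at day 7 (23 higher, 1 lower). With the second set only, 34 were called at day 14 (11 higher, 23 lower).

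Conversion outside CpG was incomplete in some segments at day 7. Over the 114 CHG and CHH members read in all 15 libraries, the unconverted share averaged 1.61% ± 0.892 (SD) in the 6 controls. It was 1.68% ± 0.722 at day 3, 8.02% ± 1.77 at day 7 and 3.28% ± 0.566 at day 14 (n = 3 each). The day 7 libraries had 9.95%, 7.67% and 6.45%, all above the highest control at 3.18% (exact permutation p = 0.0238, the smallest possible, and 0.0952 after adjustment). Day 14 had 3.93%, 2.92% and 2.99%, which overlapped the controls (exact permutation p = 0.0714, adjusted 0.133). Cytosines above 5% unconverted numbered 7 in controls, 6 at day 3, 47 at day 7 and 22 at day 14. Of all 114, 13 were above 20% at day 7 and 2 at day 14, and none at control or day 3. Their share in the CpG differences was not tested beyond the corrected fits given for each segment.

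Across the 97 CpG sites, the difference at a site and the difference in unconverted share of CHG and CHH cytosines within 100 bp had a Pearson r of 0.54 at day 7 and 0.54 at day 14 (Spearman 0.54 and 0.38). For day 14 against day 7 the values were 0.76 and 0.77. These values describe neighbouring sites that share reads, libraries and local cytosines, and such sites are not independent. Only 1 tested member, 10713, had less than 2% unconverted nearby in every library, and it was called higher at day 14.

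**Figure D3:**
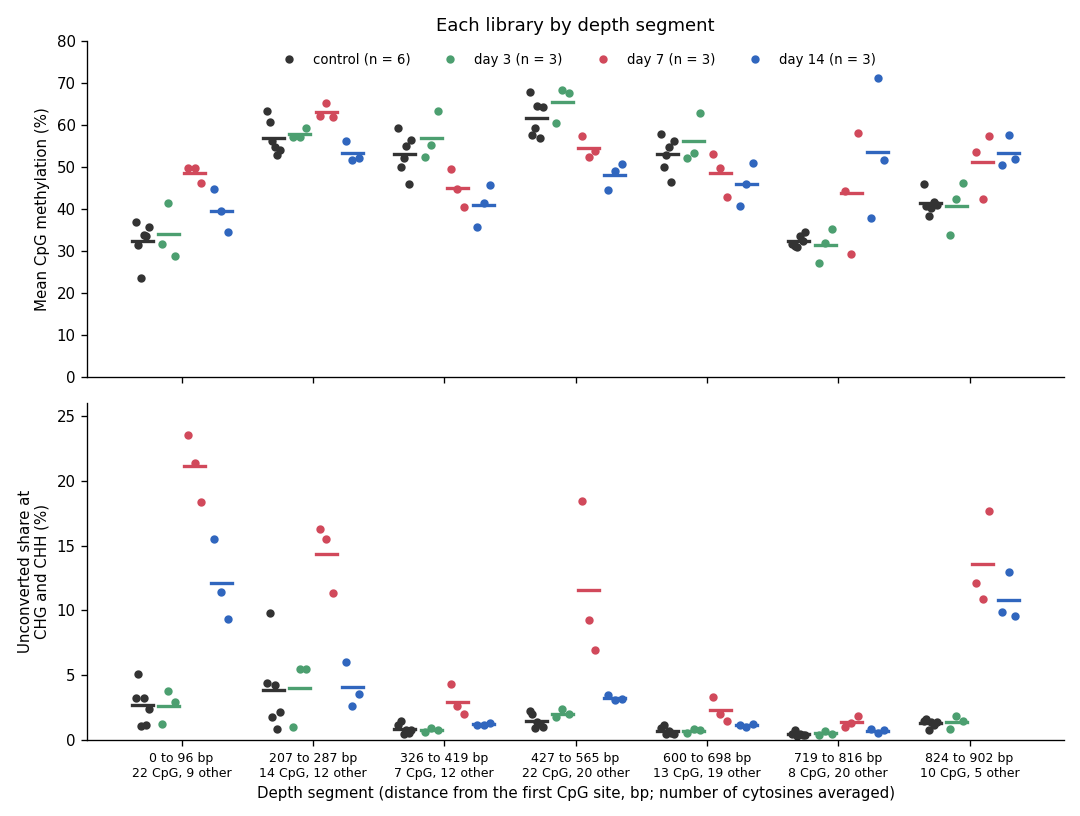
Mean CpG methylation in percent (top) and unconverted share of CHG and CHH cytosines in percent (bottom) for each library, with a bar at the group mean, in the 7 segments that held more than 1 tested CpG site. Day 7 libraries stand above all controls in the first segment in both panels, while in the segment from 719 to 816 bp methylation varied widely between exposed libraries and the unconverted share stayed below 2%.

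The first segment, 9972 to 10068, held 22 tested sites, all of which rose at day 7. The 3 day 7 libraries averaged 49.7%, 49.7% and 46.1%, and the controls 23.5%, 33.6% and 37.0% (lowest, median, highest), so the groups did not overlap. The rises of the 22 sites were 13.5 to 17.6 points. At day 14 the libraries averaged 44.7%, 39.5% and 34.4%, which overlapped the controls, and 4 sites were called. These 4 calls went to 0 without day 14 replicate 1 or 2, without control replicate 2 or 3, with thinned coverage and against the second control set, went to 2 without control replicate 4 and against the first set, and rose to 8 without day 14 replicate 3. Day 3 averaged 34.0% ± 6.69 (n = 3).

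The unconverted share moved with this rise. Over the 9 CHG and CHH cytosines of the segment it was 2.70% ± 1.52 in controls, 21.1% ± 2.62 at day 7 and 12.1% ± 3.16 at day 14. Within the segment it grew from left to right: 9974 had 5.5% at day 7, 9994 had 24.3% and 10004 had 35.8%, against 0.792%, 3.03% and 4.39% in controls. All 9 cytosines lay from 9974 to 10008, and none stood beside the CpG sites from 10012 to 10068. Coverage moved too, from a median of 2048 reads per site in controls to 10408 at day 7 and 8929 at day 14.

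Removing the local unconverted share left a smaller rise. The corrected segment mean was 30.9% ± 4.57 in controls, 39.2% ± 1.299 at day 7 and 33.8% ± 4.02 at day 14. In edgeR on the corrected counts, 13 of the 22 sites remained called higher at day 7 and 0 at day 14. For the sites from 10012 to 10068 the share removed came only from cytosines at 10008 or to its left. Over the whole stretch this correction gave 19 members higher and 26 lower at day 7, in place of 33 and 8 (18.1% higher and 57.6% lower of 845 sites). At day 14 it gave 15 higher and 33 lower (21.1% and 44.1%). A correction chosen after the data were seen used every CHG and CHH cytosine with 10 reads in the library at hand. With it, the direction turned in part of the segment: 12 of the 22 sites were called lower and 8 higher at day 7. The corrected mean of 9995, on the left, rose from 26.4% ± 3.58 in controls to 40.8% ± 2.40 at day 7. That of 10048, further right, fell from 34.8% ± 5.30 to 0.0%. This correction drew on the cytosines from 10107 to 10170, which lie to the right of the segment and reached 10 reads mostly at days 7 and 14. Over the stretch it gave 11 members higher and 51 lower (16.4% and 62.0% of 837 sites), and 17 of the 41 sites called without it were then called in the opposite direction.

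Among single sites of this segment, 9995 had 47.7%, 46.7% and 42.4% at day 7 and 41.8%, 36.2% and 32.3% at day 14. The controls at 9995 ran from 22.1% through a median of 28.9% to 31.3%. All exposed libraries of both days lay above every control there (edgeR adjusted p = 0.000611 and 0.0348). Site 10002, 7 bp on, was at 46.2% ± 2.22 at day 7 and 37.0% ± 5.31 at day 14, against 28.8% ± 3.92 (adjusted p = 0.000928 and 0.0577). Site 9972 rose from 21.9% ± 3.63 to 37.3% ± 1.90 at day 7 and 29.6% ± 3.80 at day 14 (adjusted p = 0.000766 and 0.0340). The day 14 calls of 9972 and 9995 were lost without day 14 replicate 1 or 2 and without control replicate 2 or 3, with adjusted p up to 0.157 and 0.172, and their day 7 calls held with each library left out in turn.

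Just beyond, coverage dropped, and 10075 was the only tested site of 6 between 10075 and 10090. It had 59.0%, 58.1% and 52.9% at day 7 and 52.3%, 52.6% and 42.2% at day 14. The controls had 26.3%, 38.1% and 41.1% (lowest, median, highest), all below the exposed libraries of both days (edgeR adjusted p = 0.000859 and 0.0207). At the thinnest library 10075 had 19 reads. With the local unconverted share removed, its day 7 call was lost (adjusted p = 0.0527), and so was its day 14 call. The day 14 call was also lost against either control set alone and without day 14 replicate 1 or 2. With each library's own cytosines the share around 10075 at day 7 was 68.0%, above the methylation at the site, so that its corrected level was 0.0% and the site was called lower. The 5 untested neighbours were read in 5 control libraries each, with control means from 31.1% to 50.0% and day 7 means from 51.1% to 56.7%.

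Joined at gaps of at most 100 bp, the 23 tested sites from 9972 to 10075 formed 1 of 16 sub-stretches of the series, of which 25.0% were called higher and 31.2% lower at day 7. It averaged 32.6% ± 4.80 in controls and 48.8% ± 2.11 at day 7, a rise that passed in limma (log2 ratio difference 1.00, adjusted p = 0.00105 over the 16; exact permutation p = 0.0238). Day 14, at 40.0% ± 5.14, did not pass (adjusted p = 0.0903), except without day 14 replicate 3 (adjusted p = 0.0480). The other sub-stretch, 74 sites from 10179 to 10864, averaged 52.5% ± 3.11 in controls, 52.6% ± 2.57 at day 7 and 49.2% ± 3.50 at day 14. Neither day passed there (limma adjusted p = 0.998 and 0.294).

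Between these sub-stretches, from 10107 to 10170, 43 CHG and CHH cytosines were listed and almost none could be read in controls or at day 3. At day 7, 31 of them had 10 reads in all 3 libraries, with 64.1% to 93.7% unconverted (median 81.6%). At day 14, 11 did, with 19.8% to 34.9% unconverted. A similar gap lay at the left edge: 19 CpG sites from 9730 to 9944 reached 10 reads in all day 7 and day 14 libraries but in at most 1 control and 2 day 3 libraries. They averaged 60.5% to 92.1% methylation at day 7 and 62.3% to 91.5% at day 14, and no site of the 19 had more than 1 control library to set beside these values. They belong to the 30 listed CpG sites of 136 that the rule left out.

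The segment from 10179 to 10259, 14 tested sites, alternated between high and low methylation over a few bases. In controls 10181, 10193, 10195, 10198, 10211 and 10216 averaged between 73.1% and 84.6%, while 10179, 10185, 10190, 10238, 10240, 10256 and 10259 averaged between 30.2% and 39.8%. The control step from 10181 down to 10185 was 51.1 points, and from 10190 up to 10193 it was 50.2 points. At day 7 these steps were 34.9 and 34.4 points. At day 14 they were 47.8 and 45.9 points, near those of the controls.

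The largest day 7 rise of the stretch was at 10179. Its day 7 libraries had 64.2%, 66.2% and 58.6%, and its day 14 libraries 53.4%, 32.3% and 42.3%. The controls ran from 30.9% through a median of 36.8% to 53.3%, below all 3 day 7 libraries and overlapping day 14. The rise of 23.5 points at day 7 passed in edgeR (adjusted p = 0.00212), and from day 7 to day 14 the mean dropped by 20.3 points (adjusted p = 0.0395). With coverage thinned to that of the thinnest library at each site, the day 7 rise did not pass (adjusted p = 0.0790).

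Its neighbours 10185 and 10190 followed. Site 10185 had 52.2%, 55.6% and 45.1% at day 7 and 39.5%, 22.5% and 29.1% at day 14, and the controls 20.5%, 29.2% and 41.2% (lowest, median, highest). The day 7 libraries were all above the controls and above day 14 (adjusted p = 0.00349 against control, 0.0278 between days). Site 10190 averaged 51.6% ± 4.84 at day 7, 34.2% ± 8.83 at day 14 and 34.5% ± 7.59 in controls. Its day 7 rise passed in edgeR (adjusted p = 0.00812), and from day 7 to day 14 the mean dropped by 17.4 points (adjusted p = 0.0465). The high site 10181 was also called higher at day 7 (edgeR adjusted p = 0.0318), which made 4 calls in the segment. It was called lower at day 14 than at day 7 (adjusted p = 0.0240). Both calls of 10181 were lost without day 7 replicate 2 or 3. With the local unconverted share removed, 3 sites of the segment were called higher and 1 lower at day 7, and no member was called between days 14 and 7. With the cytosines of each library, all 14 sites were called lower at day 7 and 6 higher at day 14 than at day 7, so the direction at 10179, 10185 and 10190 turned. The share around 10179 was then 58.2% at day 7, and the corrected levels were 11.7% ± 6.38 at 10179 and 0.0% at 10185 and 10190. Their calls between the days were also lost without day 7 replicate 1 or 2 and without day 14 replicate 2 or 3.

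**Figure D4:**
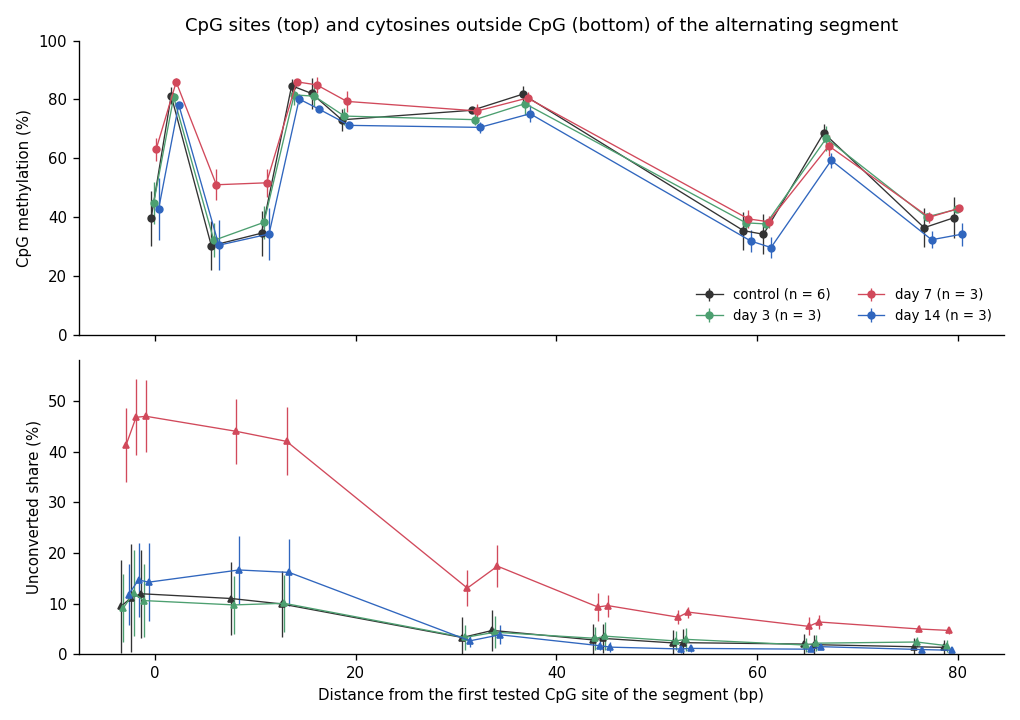
CpG methylation in percent (top) and unconverted share of CHG and CHH cytosines in percent (bottom), mean ± SD over libraries, against distance in bp from the first tested CpG site of the segment. The low CpG sites within 11 bp of the start, and the high site 10181 among them, rose at day 7 where the unconverted share was 41.2% to 47.0%. The low sites from 59 bp on, with less unconverted cytosine around them, were not called.

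Among the CHG and CHH members of the stretch, those at this same edge were the most unconverted at day 7. The 5 CHG and CHH cytosines from 10176 to 10192 had 41.2% to 47.0% unconverted at day 7, and the whole segment averaged 3.85% ± 3.23 in controls, 14.4% ± 2.64 at day 7 and 4.06% ± 1.74 at day 14. The 2 control sets also stood apart here, at 60.0% ± 3.66 in the first and 53.9% ± 0.941 in the second (n = 3 each), which did not overlap. Against the first set alone no site of the segment was called at day 7, and against the second 8 were called higher. At day 14, 10211, 10216 and 10246 were called lower, and 10246 fell by 9.30 points. These 3 calls went to 0 without day 14 replicate 1 and with thinned coverage, to 1 without day 14 replicate 3, without control replicate 1 and against the second control set, and to 2 without day 14 replicate 2 and without control replicate 2 or 6.

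Of the 6 steady members, 4 belonged to this segment. Site 10238 had 39.7%, 42.1% and 36.2% at day 7 and 36.1%, 29.5% and 29.7% at day 14, and the controls 29.2%, 33.0% and 44.2% (lowest, median, highest). Site 10256 averaged 36.4% ± 6.67 in controls, 40.0% ± 1.32 at day 3, 39.9% ± 1.96 at day 7 and 32.3% ± 2.98 at day 14. Site 10240, 2 bp from 10238, averaged 34.1% ± 6.83, 37.6% ± 1.78, 38.4% ± 2.07 and 29.6% ± 3.51 in the same order. All exposed libraries of these 3 sites lay within the control range, except 1 day 14 library of 10240 at 27.2%, under the lowest control at 27.8%. Site 10193, the most methylated member, was the fourth, at 80.1% ± 1.82 at day 14 and 86.0% ± 0.942 at day 7. Steady refers to edgeR: the quasi-binomial model called 10193 lower at day 14 (adjusted p = 0.0196) and 10256 higher at day 7 (adjusted p = 0.0457). With the share of each library's own cytosines removed, the corrected levels of 10238 and 10240 were 0.0% at day 7. Shifts within the control SD, 6.48 to 6.83 points at 10238, 10240 and 10256, may have gone undetected.

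Of the 33 sites that fell on at least 1 day, 29 lay between 10298 and 10537. In the segment from 10298 to 10391, 7 sites, controls averaged 53.1% ± 4.76, day 7 45.0% ± 4.50 and day 14 41.0% ± 5.02. Of its sites, 2 were called lower at day 7 and all 7 at day 14. The 7 became 2 without day 14 replicate 1 and against the second control set, and 4 without day 14 replicate 2 and without control replicate 1. The 2 at day 7 became 1 without day 7 replicate 2 or 3, without control replicate 1, 4 or 6, with thinned coverage and against either control set. Coverage was the highest of the stretch, with medians of 36131 reads per site in controls, 27903 at day 7 and 28369 at day 14. Unconverted cytosines made up 0.849% in controls, 2.96% at day 7 and 1.21% at day 14.

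Site 10298 fell furthest on both days. It had 38.3%, 35.6% and 32.3% at day 7 and 28.9%, 33.1% and 36.1% at day 14. The controls ran from 46.3% through 50.8% to 58.1%, and day 3 from 49.1% to 61.0%, all above the libraries of days 7 and 14. The mean dropped by 16.0 points at day 7 and by 18.6 points at day 14 (edgeR adjusted p = 0.00143 and 0.000363). The difference between the days, -2.67 points, did not pass (adjusted p = 0.719). Site 10314, the next, was also called on both days, and the 5 sites from 10362 on were called at day 14 only.

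The next segment, 10399 to 10537, had median coverage of 1082 reads per site in controls, 878 at day 7 and 848 at day 14, and the same direction. Its 22 sites averaged 61.7% ± 4.40 in controls, 65.3% ± 4.36 at day 3, 54.5% ± 2.60 at day 7 and 48.0% ± 3.20 at day 14. The day 14 libraries had 44.4%, 48.9% and 50.6%, below the lowest control at 57.0%. All 22 sites were called lower at day 14, and their means fell by 9.63 to 16.3 points. Day 7, at 57.4%, 52.4% and 53.8%, overlapped the lowest control, and 6 sites were called lower. Without day 7 replicate 3 none of the 22 was called at day 7, and without replicate 2, or without control replicate 1, 4 or 6, only 1 was. Without day 7 replicate 1, sites 10403, 10422, 10426, 10430 and 10461 lost their call.

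Against control, the unconverted share here moved the other way from methylation at days 7 and 14, while from day 7 to day 14 both fell. The share was 1.46% ± 0.541 in controls, 11.6% ± 6.09 at day 7 and 3.25% ± 0.170 at day 14. With this share removed, day 7 averaged 50.2% ± 1.25 against 61.2% ± 4.42, and 20 of the 22 sites were called lower at day 7. At day 14 all 22 were called lower in that fit, and also under the replicate block and the quasi-binomial model, and 18 with thinned coverage.

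Single sites of this segment moved alike. Site 10413 had 59.2%, 60.4% and 53.5% at day 7 and 48.9%, 53.4% and 56.4% at day 14, and the controls 64.1%, 68.7% and 75.4% (lowest, median, highest). Both days lay below every control (edgeR adjusted p = 0.0180 and 0.00185). Site 10426 had 55.4%, 56.4% and 55.1% at day 7 and 45.7%, 50.2% and 50.9% at day 14, with the lowest control at 59.3% (adjusted p = 0.0364 and 0.00174). The day 7 call of 10413 was lost without day 7 replicate 3, and that of 10426 without day 7 replicate 1, 2 or 3 and without control replicate 1, 4 or 6. Sites 10422 and 10430 on either side averaged 53.3% ± 4.68 and 57.9% ± 1.18 at day 7 against 64.2% ± 5.48 and 67.6% ± 5.67 in controls. Site 10516 averaged 65.8% ± 4.19 in controls and 50.4% ± 3.35 at day 14, a fall that passed (adjusted p = 0.00195), and 58.1% ± 5.19 at day 7, which did not (adjusted p = 0.0783).

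From 10572 to 10670 the same direction continued without passing. The 13 sites averaged 53.0% ± 4.29 in controls, 48.6% ± 5.16 at day 7 and 45.8% ± 5.13 at day 14. Day 14 libraries had 40.7%, 45.8% and 51.0% and overlapped the controls, which ran from 46.3% to 57.9%. Only 10670, the last and least methylated site, was called, and its mean fell by 7.06 points at day 14 (edgeR adjusted p = 0.0424). That call was lost without day 14 replicate 1 or 2 and without control replicate 1, 4 or 6. These sites supplied 12 of the 16 members with no call and a shift of more than 5 points. Their coverage was near that of 10298 to 10391, and their unconverted share was 0.703% in controls, 2.27% at day 7 and 1.13% at day 14.

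The direction changed again at 10691. The 8 sites from 10691 to 10788 averaged 32.4% ± 1.41 in controls, the narrowest spread of the segments. Day 3 libraries had 27.3%, 31.9% and 35.3%. Day 7 libraries had 44.3%, 29.3% and 58.1%, and day 14 libraries 37.8%, 71.1% and 51.7%, against 31.1% to 34.5% in the 6 controls. All 3 day 14 libraries were above every control, while day 7 replicate 2 lay below them and the other 2 above.

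All 8 sites were called higher at day 14, by 19.6 to 22.7 points, and none at day 7. Without day 14 replicate 2, the library at 71.1%, 2 of the 8 remained called, and without day 7 replicate 2, 7 of the 8 were called at day 7. Against the second control set alone 4 of the 8 passed at day 14. The unconverted share stayed low in every group, at 0.457% in controls, 1.38% at day 7 and 0.702% at day 14, and all 8 day 14 calls held with it removed. Coverage did move: the control median was 6827 reads per site, day 7 replicates 1 to 3 had 967, 5453.5 and 126.5, and day 14 replicates 1 to 3 had 785.5, 2788 and 7378. The lowest day 7 methylation was in its most deeply read library. At day 14 the highest was in neither the deepest nor the thinnest.

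Sites within this segment kept step. At 10696 the day 14 libraries had 41.1%, 72.7% and 53.7% and day 7 46.9%, 31.0% and 57.5%, with controls of 31.9%, 32.8% and 35.0% (lowest, median, highest; adjusted p at day 14 = 0.00386). At 10713 the day 14 libraries had 35.9%, 69.6% and 50.4% and day 7 40.3%, 31.3% and 53.9%, with controls of 28.0%, 29.4% and 31.9% (adjusted p at day 14 = 0.00346). Within each day the libraries ranked the same way at both sites. Sites 10691, 10701 and 10788 averaged 46.3% ± 16.8, 54.1% ± 16.7 and 58.5% ± 15.6 at day 14, against 25.4% ± 1.60, 32.4% ± 1.29 and 37.5% ± 1.83 in controls. The day 14 libraries spread far more widely than the controls at each.

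The last tested segment, 10796 to 10864, split in 2. Its 7 sites from 10840 to 10864 averaged 37.2% to 48.2% in controls and 53.6% to 66.8% at day 14, and all 7 were called higher at day 14. At day 7, 6 of them were called higher. The first 3 sites, 10796, 10826 and 10830, were not called on any day. At 10826 the day 7 libraries had 43.3%, 8.0% and 59.1%, on both sides of the controls at 27.6% to 43.1%, and day 14 had 29.1%, 31.5% and 41.8%. Site 10830 had 40.9%, 14.6% and 47.4% at day 7. Both counted as steady by their means, but the spread at day 7 was 26.2 and 17.3 points.

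Reads were scarce in this segment. The median per site was 629 in controls over its 12 members, and for the tested sites the day 7 libraries had 85, 317.5 and 15.5. The quasi-binomial model, which weights a library by its reads, called 10796, 10826 and 10830 lower at day 7 (adjusted p = 0.0145, 0.00447 and 0.00890) and none of the 7 others. Leaving out day 7 replicate 1, 2 or 3 left 0, 2 and 3 sites higher in edgeR, with 1 site lower without replicate 1 or 3, and leaving out control replicate 3 or 6 left 3, and control replicate 4 left 4. With coverage thinned to that of the thinnest library, 1 site was called higher at day 7 and 1 at day 14, and against the first control set none was at day 7. Against the second set 4 were. The unconverted share over 5 cytosines was 1.29% in controls, 13.6% at day 7 and 10.8% at day 14, and reached 40.9% and 34.5% at 10863. With the local share removed, 3 sites were called higher at day 7 and 7 at day 14. That share averaged 10863, which had 10 reads in its thinnest library, with 10852, at 24.8% at day 7 and 18.2% at day 14. It also took in more fully converted cytosines, such as 10811 at 0.051% at day 7 and 0.146% at day 14. Even with each library's own cytosines, the share within 100 bp of 10864 was 9.50% at day 7 and 8.18% at day 14. The share removed was thus well under that at 10863.

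Of the 9 members that could not be tested, 10171 stood alone at 89.1% in controls, 96.4% at day 3, 96.2% at day 7 and 83.4% at day 14. Sites 10866, 10874 and 10879 were read in all controls but in 2 of 3 day 7 libraries. Their day 14 means of 59.9%, 42.8% and 74.5% stood beside 41.1%, 25.3% and 66.4% in controls. These values are given without a test.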

How the data were processed

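Bisulfite PCR products from genomic DNA of 15 libraries were sequenced as paired ends on an Illumina instrument, per the labels' protocols. Tools listed in the submitters' processing notes are BSMAP 2.90, methylKit, SAMtools 1.3.1 and Trim Galore, with the builds hg19 and GRCh37, while the deposited positions lie on 1 ribosomal DNA repeat sequence. Each deposited file gives, per the file headers, a count of C and of T reads for each cytosine, and the methylated fraction that the authors computed from them. No count was altered, and each fraction is printed as a percent.

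Sites needed 10 reads in all 15 libraries. Methylated and unmethylated counts of all 851 such CpG sites were fitted by edgeR 4.0.16 in R 4.3.3 (quasi-likelihood test, an effect for each library, a methylation term for each group), with Benjamini-Hochberg adjustment over the 851 and a threshold of 0.05. Sub-stretches (sites with gaps of at most 100 bp) were tested as mean log2((methylated + 0.5)/(unmethylated + 0.5)) with limma 3.58.1, and means of the stretch by two-sided exact permutation tests over 84 assignments of libraries (20 for 3 against 3). Scripts were tested on simulated data. The local unconverted share is the mean over CHG and CHH cytosines within 100 bp read in all 15 libraries, and the corrected fits reduced methylated counts by it. The PCR reads carry no molecular identifiers and are not independent molecules, so depth speaks of reads only.

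The members, the segments and the tests were chosen with earlier results of these data known. Named sites were, for each day against control, up to 5 called rises and 5 called falls of largest size with all exposed libraries outside the control range, for day 14 against day 7 up to 3 each way, the 3 sites of lowest p where none was called, the 5 steadiest, and the most and least methylated in controls; other sites were named after their values were seen. Libraries of the same group differed in the spread of reads over sites far beyond counting error, so none was taken for a copy. Alternatives covered coverage minimum, model, samples in the fit, depth, local conversion, control set, the replicate number as a block and each library left out.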

Additional observations from a re-analysis of the deposited data

Results flagged for a closer look

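Sites 10185, 10179 and 10190 differed between the exposed days themselves: the day 14 minus day 7 difference was -20.6 points at 10185, -20.3 points at 10179 and -17.4 points at 10190 (edgeR quasi-likelihood test, adjusted p = 0.0278, 0.0395 and 0.0465). In each of the 3, every day 14 library lay below every day 7 library. The unconverted share of CHG and CHH cytosines within 100 bp of 10179 was 4.56% in controls, 17.4% at day 7 and 5.05% at day 14. With it removed, adjusted p was 0.0980 at 10179, 0.0775 at 10185 and 0.143 at 10190. With the cytosines of each library used instead, 10179, 10185 and 10190 were called higher at day 14 than at day 7 (adjusted p = 0.0354, 0.0236 and 4.59e-05). The edgeR calls were also lost without day 7 replicate 1 or 2 and without day 14 replicate 2 or 3. A check of the 6 control libraries for one far from the rest, over 35 sets of values (the named sites, the segment means and the stretch means), flagged 0.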

How the results depend on the processing

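At day 7, 41 members were called, and 62 with the unconverted share of each library's own cytosines removed (added after the data were seen), 24 against the first control set, and 1 where nearby cytosines were under 2% unconverted, a setting that left 1 member to test. At day 14, 53 became 33 with thinned coverage, 34 against the second control set and 1 in that 1-member setting. Between days 14 and 7, 4 became 0 at a minimum of 100 reads, with only the groups compared, with thinned coverage, with the local share removed and in the 1-member setting, 18 with each library's own cytosines (all higher, 3 of them opposite), 44 in the quasi-binomial model and 49 in that model over the member-rule sites. The 44 were lower at all 22 sites from 9972 to 10068, at 10075 and at 13 of 14 from 10179 to 10259. They were higher at 7 of 8 sites from 10691 to 10788 and at 10826. The cause was not tested beyond the fewer sites or samples in these settings. Leaving out 1 library gave 0 to 0 calls at day 3, 31 to 42 at day 7, 35 to 58 at day 14 and 0 to 4 between days 14 and 7, and a log2 ratio difference of 0.32 to 0.63 for 9972 to 10075 at day 14. With reads summed, the stretch mean at day 14 changed by -6.32 points, and the unconverted share by 1.07 points at day 14 against control and -2.75 points against day 7. That share changed by 1.44 points at day 14 at a minimum of 100 reads. With the local share removed, the stretch mean differed by -2.12 points between days 14 and 7. Replicate numbers did not pair libraries: 27 same-numbered pairs had deviations correlated at -0.27 to 0.17 (median -0.016). With the replicate number as a block, 0, 32, 50 and 2 members were called at days 3, 7, 14 and between days 14 and 7. With each library's own cytosines, 6 results of single named sites reversed and 20 did not: the log2 ratio differences were -12.66 at 10075, -2.18 at 10179 and -13.60 at 10185 at day 7, and 1.58 at 10179, 11.51 at 10185 and 12.57 at 10190 between days 14 and 7. The values beyond 10 in size come from corrected levels of 0.0% at day 7. None reversed in limma, with thinned coverage, under the block or with the planned local correction, where 10179, 10185 and 10190 each lost their call between the days in at least 1 of these.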
